A study of Mus musculus with 8 samples.

Results

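The immediate early transcription factors examined were 10 genes picked by symbol: Fos, Fosb, Jun and Junb of the AP-1 family, Egr1, Egr2 and Egr3 of the EGR family, and Nr4a1, Nr4a2 and Nr4a3 of the NR4A family. All 10 were found among the 31406 genes of the count table, joined by gene identifier, and all 10 passed the filter on low counts that left 18756 genes for the test. RNA sequencing gave 8 libraries of primary striatal microglia from newborn wild-type C57/BL6 mice, kept in culture for 15 days and then activated for 48 h with LPS, at 0.01% (v/v), and interferon-γ, at 0.002% (v/v), which the methods of the study list as the human protein. By their titles, all 8 received SCH58261, which blocks the adenosine A2A receptor. The 4 libraries of the dual group also received 200 nM 2-Cl-IB-MECA, an agonist of the adenosine A3 receptor, and the 4 of the A2A antagonist group did not. Ligands were added 24, 32 and 40 h into the activation, so RNA was extracted 8 h after the last addition. The grouping follows the sample titles, with which the column names go. The treatment field of the labels assigns 2-Cl-IB-MECA the other way round and does not name SCH58261. The presence of SCH58261 and every direction given here therefore rest on the titles. Vehicle-treated cells were not analysed here. Nothing in the labels says that the libraries came from separate cultures, so p-values measure only the spread between these libraries, which may be technical. For ligand-treated cells the methods of the study give fewer replicates than the 4 libraries per group here, whereas a figure legend gives 4.

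Immediate early genes are transcribed within minutes of a stimulus, without new protein synthesis, and their RNAs are short-lived. Many are switched on by serum response factor (SRF) and its partners downstream of MAP kinases, and by CREB downstream of cyclic AMP. The A2A receptor raises cyclic AMP through Gs proteins and the A3 receptor lowers it through Gi proteins. Fos and Jun proteins form the dimeric factor AP-1, EGR proteins are zinc-finger factors, and NR4A proteins are orphan nuclear receptors. In macrophages and microglia such genes are part of the early response to LPS.

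The promoters of Fos, Egr2 and Nr4a1 are shown because the levels of these genes moved together across the libraries, and that of Jun because its level hardly varied. Windows from 250 bases before to 50 bases after the start site were read from RefSeq (GRCm38.p6) for 8 of the 10 members. Those of Egr1 and Egr3 were not read, which does not mean that RefSeq lacks them. The motif counts of the members therefore leave out Egr1 and Egr3, whose levels moved with those of Fos, Egr2 and Nr4a1. The 250 bases before the start site are printed. Capitals mark motifs searched on both strands: the core TGACG of the cyclic AMP response element, the AP-1 site TGANTCA, its variant TGACATCA, the TATA box TATAAA, the EGR site GCGGGGGCG and the CArG box that SRF binds. The stretch of Fos lies at chr12:85473640-85473889 (plus strand), that of Nr4a1 at chr15:101266596-101266845 (plus strand) and that of Jun at chr4:95052223-95052472 (minus strand). For Egr2 RefSeq lists 5 start sites, and the stretch at chr10:67537619-67537868 (plus strand) was chosen after its motifs were seen.
Fos: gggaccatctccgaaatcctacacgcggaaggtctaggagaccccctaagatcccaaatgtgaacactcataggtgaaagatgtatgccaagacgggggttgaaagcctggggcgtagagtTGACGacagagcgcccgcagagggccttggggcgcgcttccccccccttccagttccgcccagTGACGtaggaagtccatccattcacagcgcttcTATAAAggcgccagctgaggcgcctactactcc
Egr2: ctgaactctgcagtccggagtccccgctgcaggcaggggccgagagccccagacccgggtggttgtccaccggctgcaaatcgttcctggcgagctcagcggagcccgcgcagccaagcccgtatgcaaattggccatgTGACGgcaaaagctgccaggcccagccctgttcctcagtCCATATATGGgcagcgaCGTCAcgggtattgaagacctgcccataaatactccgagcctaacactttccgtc
Nr4a1: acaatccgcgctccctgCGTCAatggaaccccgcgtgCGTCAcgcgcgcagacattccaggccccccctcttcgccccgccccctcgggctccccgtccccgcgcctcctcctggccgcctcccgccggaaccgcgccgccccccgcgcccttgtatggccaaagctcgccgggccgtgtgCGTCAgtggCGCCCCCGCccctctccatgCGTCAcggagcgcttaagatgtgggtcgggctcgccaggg
Jun: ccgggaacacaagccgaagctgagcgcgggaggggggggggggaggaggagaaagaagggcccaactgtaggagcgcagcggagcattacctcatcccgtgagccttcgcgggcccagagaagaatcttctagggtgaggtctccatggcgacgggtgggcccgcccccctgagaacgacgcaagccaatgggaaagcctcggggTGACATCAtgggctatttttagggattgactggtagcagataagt
The core TGACG was found in 7 of the 8 members whose windows were read, Jun being the exception. It was in 20.8% of the 32817 windows of 300 bases of all genes. Egr2 was read in 5 windows, so the share of members is not on the same footing as the share of windows. The windows of these members also held 56% to 81.7% GC, against a median of 52.7% over all windows. In Fos the core started 129 and 66 bases before the start site, and in the Egr2 stretch 111 and 55 bases before it. Nr4a1, Nr4a2 and Nr4a3 held 4 copies each, and Fosb and Junb 1 each. The core was thus not particular to Fos, Egr2 and Nr4a1. The full response element, in which TCA follows the core, was in no window of these 8 members (1.79% of all windows), and neither was TGANTCA (7.81%). A CArG box, held by 1.63% of all windows, was found in Egr2, starting 72 bases before the start site in the stretch shown. Sites more than 250 bases before a start site, and those of Egr1 and Egr3, were not searched. The variant TGACATCA (3.62% of all windows) was found in Jun, 45 bases before the start site. The EGR site (2.91%) was found in Fosb and Nr4a1, and the letters TATAAA (13.6%) in Fos, Junb and Nr4a2. These are matches of letters, and no binding was measured.

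The genes are short: 8 of the 10 span less than 17754 bases, the median of all genes tested (GRCm38 coordinates as deposited, the same in GENCODE release M21). Jun (chr4:95049034-95052222) spans 3189 bases and Nr4a3 (chr4:48045153-48086447) 41295 bases. Exons of Jun share 232 of 3189 bases with the antisense gene Junos, and exons of Junb (chr8:84974484-84978718) share 173 of 2301 bases with Prdx2 on the opposite strand. Whether the counting used strand was not stated, so reads of these pairs cannot be told apart where they overlap.

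Total counts ran from 32630602 to 45878639 per library, mitochondrial genes took 1.582% to 1.802% of them, and pairs of libraries within a group differed by 3.8 to 9.43 times the chi-square per degree of freedom expected from counting noise. All 10 markers of microglia passed the filter on low counts. Per kb of gene length, in CPM (counts relative to the library total, scaled with TMM factors), the mean over 8 libraries was 46.3 for the receptor Csf1r and 35.8 for Aif1 (Iba1). The complement gene C1qa had 423 and C1qb 202, whereas the homeostatic markers Tmem119 and P2ry12 had 3.2 and 0.72 (these 4 were picked after their values were seen). Some astrocyte and fibroblast markers were also abundant, with 393 CPM per kb for the astrocyte filament Gfap, 219.6 for the glutamate transporter Slc1a3 and 58.7 for the collagen Col1a1. The cultures are labelled microglia, and the methods of the study report high purity by labelling with CD11b antibodies. The RNA levels of these markers go against a pure culture. The cell type in which each member was transcribed was not tested. Fewer cells of a type and less RNA per cell cannot be told apart in such bulk samples.

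The members spanned a wide range of levels per length. Junb, a Jun-family subunit of AP-1, was the highest with a mean of 167 CPM per kb over the 8 libraries, followed by Jun with 55.5, Fos with 44.9 and Egr1 with 37.7. Nr4a1 had 5.9 CPM per kb, 6.39 times less than Egr1. Below it came Egr2 with 2.55, Egr3 with 1.42, Nr4a3 with 0.952, Nr4a2 with 0.726 and Fosb with 0.363 CPM per kb. The highest 4 members were thus above 92.7% to 98.9% of all genes tested, while Fosb was above 15.2% of them. Library values of neighbours in this order overlapped in both groups for Fos with Egr1 and for Nr4a3 with Nr4a2. Egr2 with Egr3, and Egr3 with Nr4a3, overlapped in the A2A antagonist group and were apart in the dual group. The remaining neighbours were apart in both groups, and the order of the means was the same in both.

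**Figure D1:**
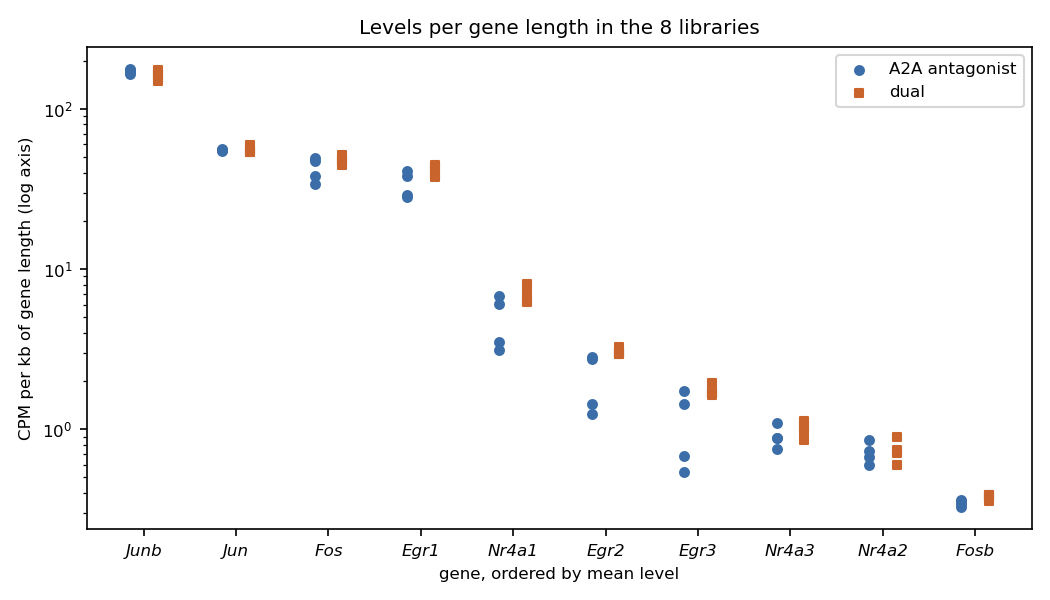
Level of each member in CPM per kb of gene length (log axis) in the 4 A2A antagonist libraries (circles) and the 4 dual libraries (squares), genes ordered by mean level. Junb is the highest at a mean of 167 and Fosb the lowest at 0.363, and the circles of Nr4a1, Egr2 and Egr3 are spread more widely than their squares.

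The comparison of the dual with the A2A antagonist group asked whether the A3 receptor agonist changed these genes in cells that already received the A2A receptor antagonist. None of the 10 members was called (edgeR quasi-likelihood test with a Benjamini-Hochberg adjusted p-value under 0.05), where 0.208% of all genes tested were, 0.0480% higher and 0.160% lower in the dual group. At an unadjusted p-value under 0.05 in edgeR, Fos, Egr1, Egr2, Egr3 and Nr4a1 were higher in the dual group and 0 members lower, against 5.98% of all genes higher and 12.8% in either direction. The log2 fold change was positive for 9 of 10 members and for 51.5% of all genes, with a median of 0.17 over the members and 0.0038 over all genes. With the DESeq2 Wald test 0 of the 6 members with an adjusted p-value were called, against 3.37% of the 11313 genes that had one. Fosb, Egr3, Nr4a2 and Nr4a3 had none and so could not be called. The unadjusted p-value in DESeq2 was under 0.05 for 0 of 10 members, the smallest being 0.0652, against 7.36% of all genes. Without the filter on low counts edgeR called 4 members (Egr1, Egr2, Egr3 and Nr4a1), with adjusted p-values of 0.00163 to 0.00433, where 1.17% of all 31406 genes were called. In that fit the prior degrees of freedom, which set how far the spread of each gene is drawn to the trend, were 69.6 instead of 12.1.

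**Figure D2:**
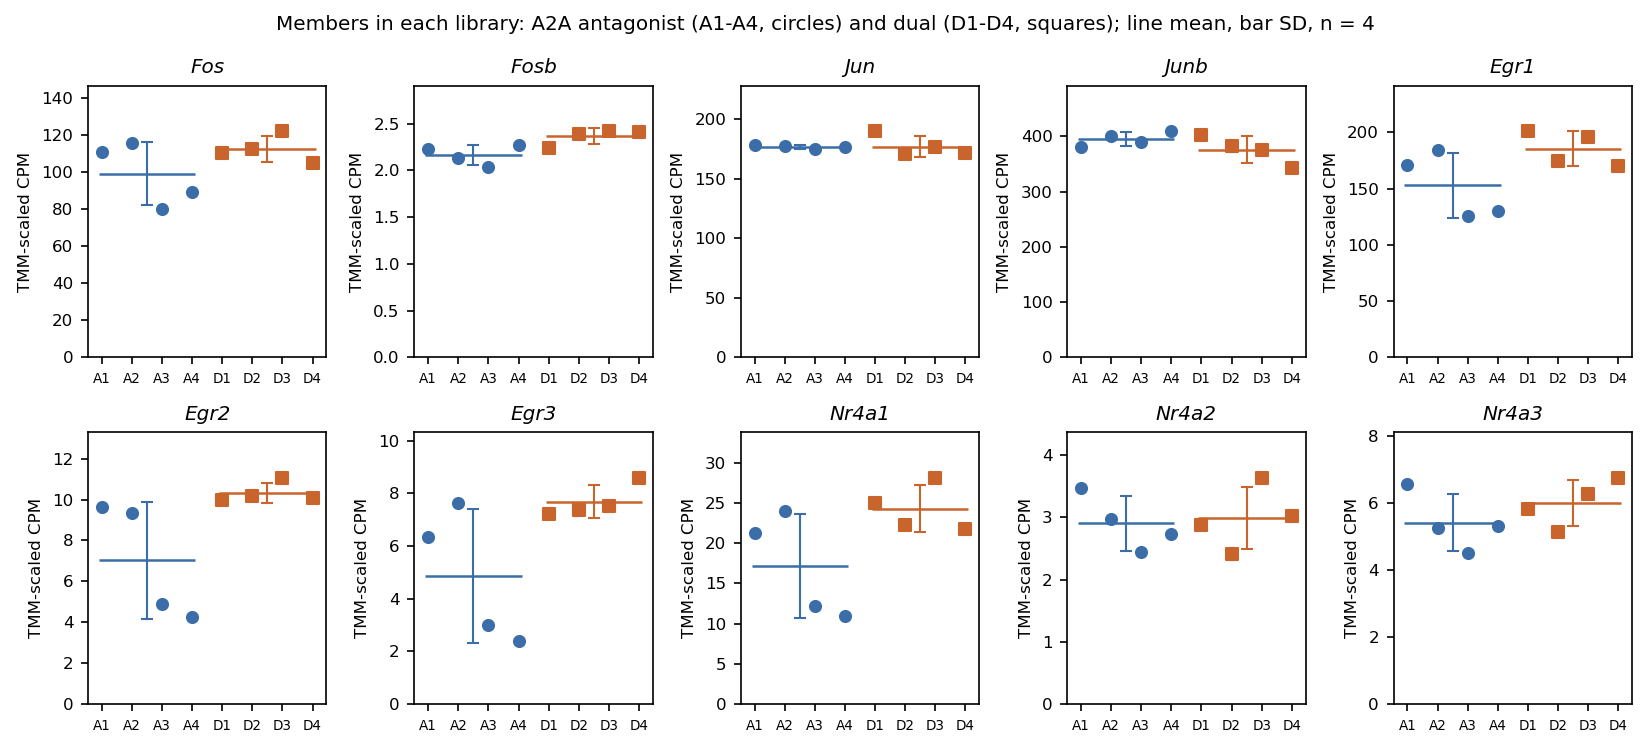
TMM-scaled CPM of each member in the A2A antagonist libraries (A1 to A4, circles) and the dual libraries (D1 to D4, squares), with the mean (line) and SD (bar) of each group, n = 4, each panel starting at 0. For Fos, Egr1, Egr2, Egr3 and Nr4a1 the libraries A3 and A4 lie below the other 6, whereas Jun is nearly level.

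The greatest differences were those of Egr3 and Egr2, followed by Nr4a1, with Egr1 below it. Egr2, a zinc-finger factor that Schwann cells need for myelination, had 9.64, 9.34, 4.88 and 4.25 CPM in A2A antagonist replicates 1 to 4 and 9.99, 10.2, 11.1 and 10.1 CPM in dual replicates 1 to 4. It was the 1 member whose groups did not overlap, where 3.36% of all genes were apart with the dual group higher and 4.06% with it lower. Replicates 1 and 2 of the A2A antagonist group lay just under the dual range and replicates 3 and 4 far under it. The means were 7.03 ± 2.86 CPM against 10.3 ± 0.499 CPM (SD, n = 4), a log2 fold change of 0.56 (SE 0.18, 95% interval 0.175 to 0.95) with an adjusted p-value of 0.192 in edgeR.

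Egr3, which is often induced together with Egr1 and Egr2, had 6.35, 7.63, 3.02 and 2.38 CPM with the antagonist and 7.23, 7.38, 7.54 and 8.59 CPM with both ligands. Antagonist replicate 2 was inside the dual range, replicate 1 below it, and replicates 3 and 4 well below both. The means were 4.84 ± 2.55 CPM against 7.69 ± 0.617 CPM (SD, n = 4). The log2 fold change of 0.67 (SE 0.24, 95% interval 0.18 to 1.17) was the greatest of the members, with an adjusted p-value of 0.22 in edgeR.

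Egr1, the most abundant EGR gene per length here, had 171, 184, 126 and 130 CPM with the antagonist and 201, 175, 196 and 169.6 CPM with both ligands. Antagonist replicates 1 and 2 were inside the dual range, and replicates 3 and 4 were the lowest libraries. The means were 153 ± 29.1 CPM against 185 ± 15.4 CPM (SD, n = 4), a log2 fold change of 0.28 (SE 0.092, 95% interval 0.086 to 0.47) with an adjusted p-value of 0.192 in edgeR.

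Among the NR4A receptors, Nr4a1 (Nur77), which is known to restrain inflammatory gene expression in macrophages, had 21.3, 23.99, 12.2 and 10.96 CPM with the antagonist and 24.98, 22.3, 28.1 and 21.8 CPM with both ligands. Again antagonist replicates 3 and 4 were low, while replicate 2 was inside the dual range and replicate 1 just under it. The means were 17.1 ± 6.49 CPM against 24.3 ± 2.92 CPM (SD, n = 4), a log2 fold change of 0.51 (SE 0.17, 95% interval 0.145 to 0.87) with an adjusted p-value of 0.205 in edgeR.

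The other NR4A genes were low and their groups overlapped. Nr4a2 (Nurr1), which midbrain dopaminergic neurons require, had 3.47, 2.97, 2.44 and 2.73 CPM with the antagonist and 2.88, 2.42, 3.64 and 3.02 CPM with both ligands, which gave a log2 fold change of 0.052 (95% interval -0.26 to 0.36). Nr4a3 (Nor1) had 6.56, 5.25, 4.498 and 5.305 CPM with the antagonist and 5.82, 5.12, 6.27 and 6.75 CPM with both ligands, which gave a log2 fold change of 0.16 (95% interval -0.087 to 0.40). Their adjusted p-values in edgeR were 0.925 and 0.618, and both intervals span 0.

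Of the AP-1 genes, Fos was low in the same libraries as the EGR genes, with a smaller range. It had 111, 116, 80.2 and 89.5 CPM with the antagonist and 110.5, 112, 122 and 105 CPM with both ligands, so that antagonist replicates 1 and 2 were inside the dual range and replicates 3 and 4 below it. The means were 99.03 ± 16.9 CPM against 112 ± 7.22 CPM (SD, n = 4), a log2 fold change of 0.18 (SE 0.083, 95% interval 0.0088 to 0.36) with an adjusted p-value of 0.359 in edgeR. Fosb, a close relative of Fos, rested on 73 to 111 counts per library and had 2.03 to 2.27 CPM with the antagonist and 2.24 to 2.42 CPM with both ligands. Its groups overlapped, with a log2 fold change of 0.13 (95% interval -0.15 to 0.40).

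Jun, the main partner of Fos, had 179, 178, 175 and 177 CPM with the antagonist and 190.1, 171, 176 and 171 CPM with both ligands. The 4 A2A antagonist libraries lay inside the dual range, and the log2 fold change was 0.00029 (95% interval -0.076 to 0.077), the narrowest interval of the members. Junb, which can oppose Jun at AP-1 sites, had 380.3, 400.1, 389.8 and 409 CPM with the antagonist and 402, 383, 375 and 343 CPM with both ligands. It was the 1 member with a lower mean in the dual group, with overlapping groups and a log2 fold change of -0.072 (95% interval -0.16 to 0.015). The adjusted p-values of Fosb, Jun and Junb in edgeR were 0.735, 0.999 and 0.495.

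**Figure D3:**
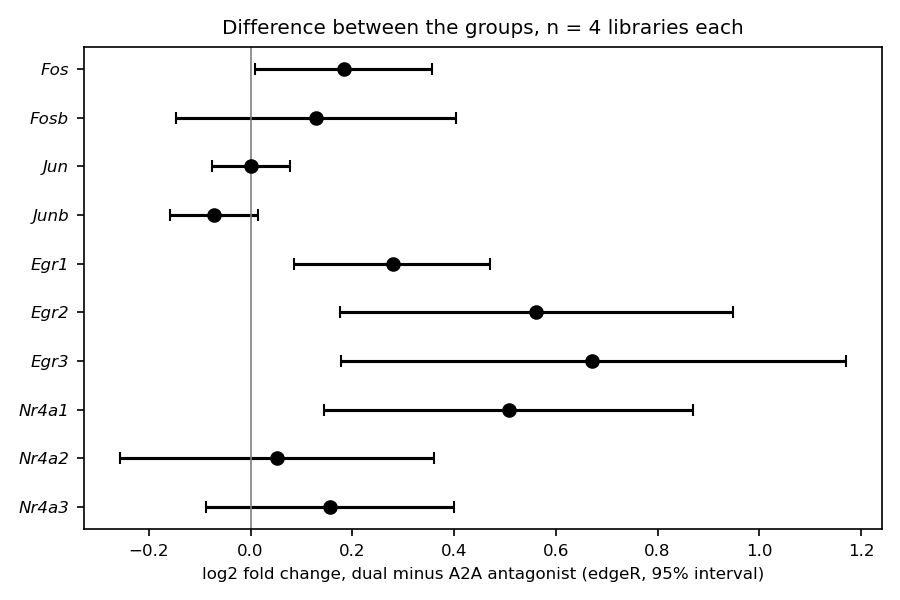
Log2 fold change of each member, dual minus A2A antagonist, with its 95% interval from the edgeR fit, n = 4 libraries per group. The intervals of Fos, Egr1, Egr2, Egr3 and Nr4a1 lie above 0, before any adjustment over all genes, and that of Jun (0.00029) is centred near 0.

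The members differed from each other in their spread inside the A2A antagonist group. The coefficient of variation over those 4 libraries was 52.6% for Egr3, 40.7% for Egr2 and 37.9% for Nr4a1, above that of 98%, 95.3% and 94.2% of all genes tested. Over the 4 dual libraries it was 8.02%, 4.83% and 12% for the same genes. For Jun it was 0.865% with the antagonist and 5.09% with both ligands. The highest A2A antagonist library had 3.21 times the CPM of the lowest for Egr3 and 2.27 times for Egr2, against 1.19 and 1.11 times in the dual group.

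Antagonist replicates 3 and 4 were the low libraries in each case. Their mean was 0.351 times the dual mean for Egr3, 0.442 for Egr2, 0.477 for Nr4a1, 0.691 for Egr1 and 0.755 for Fos. The mean of replicates 1 and 2 was 0.909, 0.919, 0.932, 0.958 and 1.01 times the dual mean for these genes in the same order. Both libraries were below the other 6 in these 5 members, as in 4.16% of all genes, and above the other 6 in 0 members, as in 3.91% of all genes. For Jun the mean of replicates 3 and 4 was 0.994 times the dual mean, and for Junb it was 1.06 times.

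**Figure D4:**
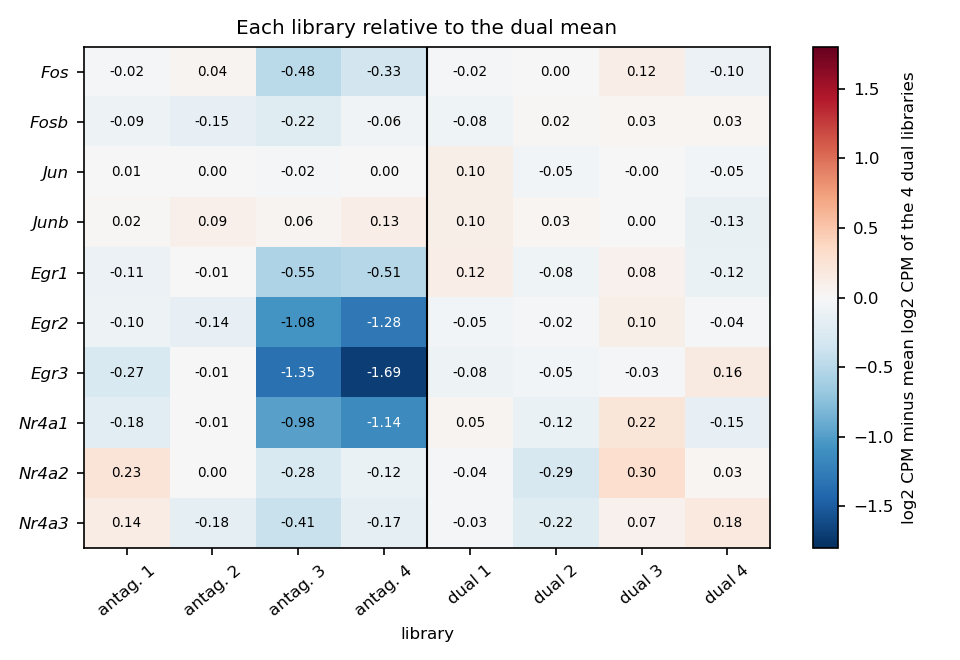
Log2 CPM of each member in each library minus the mean log2 CPM of the 4 dual libraries (colour and printed value, blue lower and red higher). Egr2, Egr3 and Nr4a1 have -0.98 to -1.69 in A2A antagonist replicates 3 and 4, and -0.27 to -0.01 in replicates 1 and 2.

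Depth, mitochondrial share and marker sums of these libraries were as follows. Replicate 3 had a total of 41928726 counts and a mitochondrial share of 1.724%, and replicate 4 had 45826860 counts and 1.582%, the lowest share of the 8. The summed CPM of the 10 microglia markers was 1308 and 1339 in replicates 3 and 4, against 1242 and 1332 in replicates 1 and 2. That of the 7 astrocyte markers was 5777 and 5972, against 6044 and 5940, and that of the 6 fibroblast markers was 2541 and 2379, against 2410 and 2652. The part of these in the levels of the members was not tested, and no batch, litter or date was given.

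With A2A antagonist replicates 3 and 4 both left out, a choice made after the values of the members were seen, the log2 fold change was 0.135 for Egr3, 0.12 for Egr2, 0.10 for Nr4a1, 0.0605 for Egr1 and -0.012 for Fos. No member then had an unadjusted p-value under 0.05 in edgeR. With 1 library left out at a time it was 0.44 to 0.99 for Egr3, 0.38 to 0.74 for Egr2, 0.34 to 0.72 for Nr4a1, 0.20 to 0.38 for Egr1 and 0.094 to 0.27 for Fos. The lowest of these values came without antagonist replicate 4 for Egr3, Egr2 and Nr4a1, and without antagonist replicate 3 for Egr1 and Fos.

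**Figure D5:**
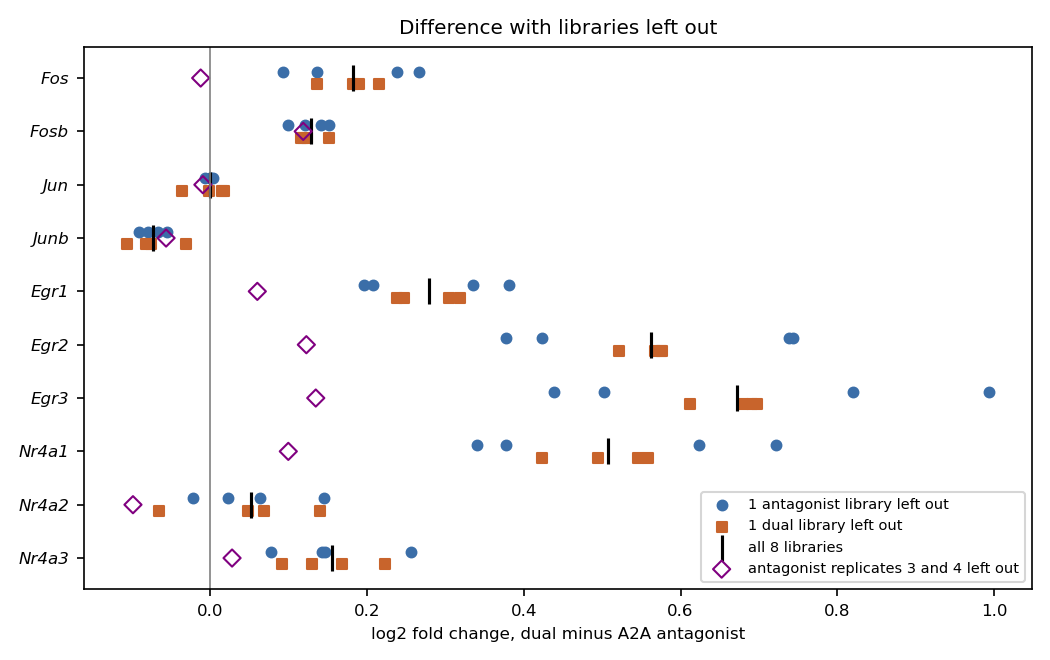
Log2 fold change of each member, dual minus A2A antagonist, over all 8 libraries (black bar), with 1 A2A antagonist library (circles) or 1 dual library (squares) left out, and with A2A antagonist replicates 3 and 4 both left out (diamonds). The diamonds of Egr2, Egr3 and Nr4a1 lie at 0.10 to 0.135, below their bars at 0.51 to 0.67.

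Correlations of log2 CPM between members are given as a description over 8 libraries that share group and scaling. The 10 pairs among Fos, Egr1, Egr2, Egr3 and Nr4a1 had Pearson r of 0.87 to 0.98 over the libraries and 0.82 to 0.97 over deviations from the group means, with Spearman rho of 0.45 to 0.93 and 0.76 to 0.95. Antagonist replicates 3 and 4 are the lowest points of each of these 10 pairs. The dual libraries alone did not share 1 order: Egr3 was highest in dual replicate 4, in which Fos, Egr1 and Nr4a1 were at their lowest of that group. Nr4a2 and Nr4a3 had r of 0.85 over the deviations. The lowest r over the deviations was -0.51, between Junb and Nr4a3.

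The 5 genes most like the mean of the z-scored members over the 8 libraries, among those whose mean log2 CPM reached 3, were Myadm (r = 0.972), Cstf2t (0.952), Col6a5 (0.951), Hdac4 (0.947) and Dusp8 (0.943). Dusp8 is a phosphatase of MAP kinases, Hdac4 a deacetylase that represses MEF2 targets and Col6a5 a collagen chain. Col6a5 had 9.54, 10.3, 6.48 and 7.59 CPM with the antagonist and 11.3, 9.78, 12.8 and 11.3 CPM with both ligands. Dusp8 had 20.97, 20.4, 16.2 and 16.9 CPM with the antagonist and 19.9, 19.97, 22.1 and 18.9 CPM with both ligands. In all 5 genes A2A antagonist replicates 3 and 4 were the lowest of the 8 libraries, which their choice by likeness to the members largely fixes. Col6a5 had a log2 fold change of 0.42 with an adjusted p-value of 0.13 in edgeR, and was called higher with DESeq2 (adjusted p-value 0.0379) and with edgeR without the filter on low counts (0.0059).

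Genes that act beside or upstream of the members were read from 5 lists. In these, 0 of 76 genes were called in edgeR, where 0.208% of all genes tested were. At an unadjusted p-value under 0.05 in edgeR, 8 of the 76 had a higher and 7 a lower mean with both ligands. Of all 18756 genes tested, 1122 were higher and 1278 lower. Antagonist replicates 3 and 4 were the lowest libraries in 13 of the 76 and the highest in 6, against 4.16% and 3.91% of all genes. The median log2 fold change of the 76 was 0.022. Among 12 AP-1 partners, 6 had a positive log2 fold change and 1 an unadjusted p-value under 0.05. That was Fosl2, which encodes the FOS-family protein Fra-2, with 242, 257, 235 and 233 CPM with the antagonist and 273, 264, 251 and 252 CPM with both ligands. The log2 fold change of Fosl2 was 0.11 (SE 0.038, adjusted p-value 0.224 in edgeR), and antagonist replicates 3 and 4 were again the lowest. Batf and Batf2, which pair with Jun proteins in immune cells, had -0.115 and -0.20.

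Of the 5 partners of EGR and NR4A proteins, 1 had a positive log2 fold change and 0 an unadjusted p-value under 0.05 in edgeR. The positive value belonged to Egr4, the remaining EGR gene, at 0.615 (SE 0.35, adjusted p-value 0.484 in edgeR), from 0.492, 0.814, 0.287 and 0.462 CPM with the antagonist and 1.07, 0.867, 0.937 and 0.338 CPM with both ligands. Nab2, a corepressor of EGR proteins, had -0.062 and Rxrb, a retinoid X receptor, -0.04.

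Among 17 upstream regulators, 12 had a positive log2 fold change and the median was 0.039. Ep300, an acetyltransferase and coactivator of CREB, had 135, 138, 131 and 136 CPM with the antagonist and 151, 143, 147 and 147 CPM with both ligands. The groups of Ep300 did not overlap, as in 3.36% of all genes with the dual group higher. Its log2 fold change was 0.12 (SE 0.033, adjusted p-value 0.13 in edgeR). Srf had 56.3, 56.3, 48.1 and 50.7 CPM with the antagonist and 61.7, 58.2, 57.8 and 55.8 CPM with both ligands, with antagonist replicates 3 and 4 lowest and a log2 fold change of 0.14 (SE 0.051, adjusted p-value 0.236 in edgeR). Mef2a, a MADS-box factor like SRF, had 0.079.

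Of 32 other immediate early genes, 21 had a positive log2 fold change and the median was 0.023, and at an unadjusted p-value under 0.05 in edgeR 3 were higher and 6 lower. The 3 smallest p-values belonged to genes with a lower mean in the dual group. Nfkbia, the NF-κB inhibitor IκBα, had 488, 512, 555 and 539 CPM with the antagonist and 476, 469, 474 and 446 CPM with both ligands, at -0.17 (SE 0.039, adjusted p-value 0.0686 in edgeR). Tnfaip3 (A20), which also restrains NF-κB signalling, had 179, 189, 195 and 195 CPM with the antagonist and 170.2, 174, 164 and 169 CPM with both ligands, at -0.16 (SE 0.035, adjusted p-value 0.0606 in edgeR). In both genes antagonist replicates 3 and 4 were the highest libraries, the opposite of their place in Fos and the EGR genes. Zfp36l1, which destabilizes AU-rich RNAs, had -0.15 (adjusted p-value 0.118 in edgeR). The groups of Nfkbia, Tnfaip3 and Zfp36l1 did not overlap, as in 4.06% of all genes with the dual group lower.

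The 10 feedback regulators of MAP kinase signalling had 5 positive log2 fold changes and a median of 0.0073. Dusp5 and Dusp1, phosphatases of MAP kinases, had 0.31 (adjusted p-value 0.22 in edgeR) and 0.19 (adjusted p-value 0.265 in edgeR). Dusp5 had 10.2, 10.6, 6.92 and 7.81 CPM with the antagonist and 11.1, 11.4, 11.7 and 9.99 CPM with both ligands. Dusp2, a phosphatase of activated leukocytes, had 8.43, 10.6, 12.3 and 12.6 CPM with the antagonist and 7.72, 7.67, 8.65 and 8.82 CPM with both ligands, at -0.42 (SE 0.11, adjusted p-value 0.0925 in edgeR). Dusp5 and Dusp1 were lowest, and Dusp2 highest, in antagonist replicates 3 and 4. Of the named genes of these lists, Nfkbia, Tnfaip3, Zfp36l1 and Dusp2 were called lower with DESeq2 and with edgeR without the filter on low counts, and Ep300 was called higher with DESeq2. Nfkbia, Tnfaip3 and Dusp2 were also called lower in edgeR without antagonist replicate 1, with adjusted p-values of 0.0177, 0.0177 and 0.0115. With antagonist replicates 3 and 4 both left out, their adjusted p-values in edgeR were 0.765, 0.693 and 0.792.

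Over the groups, the summed CPM of the 10 microglia markers was 1242 to 1339 with the antagonist and 1175 to 1248 with both ligands. Of these, the complement gene C1qa was called lower in the dual group, with a log2 fold change of -0.24 (SE 0.04, adjusted p-value 0.024 in edgeR). That call was lost without antagonist replicate 2, 3 or 4 or dual replicate 3, with adjusted p-values of 0.0648, 0.0791, 0.0932 and 0.065 in edgeR, and with antagonist replicates 3 and 4 both left out (0.483). At an unadjusted p-value under 0.05 in edgeR, 1 microglia marker was higher (Csf1r, log2 fold change 0.11) and 3 were lower, and 4 of the 10 had a positive log2 fold change. The sums of the astrocyte markers were 5777 to 6044 and 5830 to 6282, and those of the fibroblast markers 2379 to 2652 and 2369 to 2986. In both lists 0 genes were called in edgeR. At an unadjusted p-value under 0.05 in edgeR, 2 of 7 astrocyte markers were higher and 1 lower in the dual group. Of the 6 fibroblast markers 3 were higher and 0 lower, and 5 had a positive log2 fold change. Of all genes tested, 12.8% had such a p-value in either direction. The endothelial marker Cldn5 was not matched to a gene, and the neuron marker Rbfox3 did not pass the filter on low counts. The part of the markers in the levels of the immediate early genes was not tested.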

How the data were processed

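Counts per gene of 8 libraries, 4 of the A2A antagonist and 4 of the dual group, were analysed. According to the study's methods, the authors used HISAT2 to map cleaned read pairs to the Ensembl mouse genome (mm10, per the labels) and featureCounts 1.5.0-p3 to count them by gene. The deposited counts are raw whole numbers, neither normalized nor pooled, and the strand setting is not given in the sources used here. The deposited gene length in bases served for levels per kb. Columns with the authors' FPKM values and with their DESeq2 fold changes and raw and adjusted p-values, and 9 columns of control libraries that match no sample, were not used. The second deposited table held the same antagonist counts for its 30302 shared genes (0 differing values).

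The main test was the edgeR (4.0.16, R 4.3.3) quasi-likelihood F test without covariates after filterByExpr (minimum count 10) and TMM scaling, two-sided, with Benjamini-Hochberg adjustment over 18756 genes. The study's DESeq2 test (version 1.42.0 here) was an alternative. Further alternatives were RLE size factors, a minimum count of 50, no filter, a replicate block and each library left out. Total counts of 32630602 to 45878639 and a common biological coefficient of variation of 5.28% set the precision. Correlations used log2 CPM with a prior count of 2. The steps of the main edgeR fit were also run on simulated counts with the same dispersion for every gene. That run covers neither the alternatives nor genes with a wide spread.

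The members and lists were chosen with earlier results of these data known. Genes named are the members, the called genes and the 3 with the smallest p-value of each list, the 5 most like the members, and Aif1, Csf1r, Gfap, Slc1a3 and Col1a1. Promoters and motifs were read from RefSeq and gene overlaps from GENCODE M21.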

Additional observations from a re-analysis of the deposited data

Results flagged for a closer look

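A single library stood far from the other 3 of its group in 3 of 60 groups of 4 examined, by Dixon's test at its 95% critical value, and chance alone flags about 1 in 20 groups. Fosb had 2.238 CPM in dual replicate 1, against 2.392 to 2.418 CPM in the other dual libraries (gap over range 0.853). Batf had 14.47 CPM in dual replicate 3, against 11.8 to 12.11 CPM in the others (0.883). Batf2 had 2.299 CPM in dual replicate 1, against 1.761 to 1.852 CPM in the others (0.831). The 2 low A2A antagonist libraries of Fos, Egr1, Egr2, Egr3 and Nr4a1 are a pair, which this test of a single library does not pick out.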

How the results depend on the processing

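Of the 39 genes called in edgeR (9 higher, 30 lower), RLE size factors and a minimum count of 50 gave the same counts. Without the filter on low counts 366 genes were called (113 higher, 253 lower), 4 members among them, and with DESeq2 381 (107 higher, 274 lower) with 0 of the 6 members that had an adjusted p-value. With the replicate block 17 genes were called (3 higher, 14 lower) and 0 members. The labels do not say that same-numbered libraries form pairs. Correlations of same-numbered libraries were 0.0207, -0.0529, 0.0408 and -0.0112, and those of differently numbered libraries ran from -0.101 to 0.0621. Whole libraries had a median r of 0.99227 to 0.99342 with the others, so these values describe only differences around shared gene levels. They cannot tell whether libraries shared a culture. With 1 library left out at a time, 0 to 172 genes were called (0 to 46 higher, 0 to 126 lower) and 0 members, the counts being 172 without antagonist replicate 1, 5 without replicate 2, 6 without replicate 3, and 0 without antagonist replicate 4 or dual replicate 3 (1802 and 2092 genes at an unadjusted p-value under 0.05 in edgeR). With antagonist replicates 3 and 4 both left out, chosen after seeing the data, 0 genes were called (0 higher, 0 lower; 1208 unadjusted), and the median log2 fold change of the members was 0.0444. The log2 fold change of Jun, close to 0, turned negative with RLE size factors (-0.000101), no filter (-0.00539), DESeq2 (-0.00228), the replicate block (-0.000757) and both libraries left out (-0.00889), and ran from -0.0353 to 0.0174 with 1 library left out. That of Nr4a2 ran from -0.0643 to 0.145 and was -0.098 with both left out. In that last setting Fos had -0.0117, Hdac4 -0.00858 and Dusp8 -0.0326. Among the other values of the members, Egr1, Egr2, Egr3 and Nr4a1 passed the threshold without the filter and under no other setting tried. The causes were not tested. Depth limits Egr4, Batf2 and, among the members, Fosb and Nr4a2 most.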
